A study of Mus musculus with 16 samples.

Results

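The distal enhancer class described here held the short H3K27ac regions that lay away from gene starts, though often within genes. They overlapped H3K4me1 chromatin, without H3K9ac or H3K4me3. A merged H3K27ac region was taken when it was under 3000 bp long, overlapped an H3K4me1 region, overlapped no H3K9ac and no H3K4me3 region, and when every gene start assigned to it was over 5000 bp away. Of 114597 H3K27ac regions, 47828 met the rule (41.7%), and they covered 14.2 Mb. For 34 of them no gene was assigned, and these were counted as distal. The rule used positions only, but these came from peak calls in the same libraries. Of the regions, 56.5% were called in 1 line only and so entered through a line where their signal was high enough for a call. Single gains and losses, and the contrast with regions that overlap H3K9ac, are to be read with this limit.

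The study asked how the transcription factor ERG and its P199L variant, which has a leucine in place of a proline, change the chromatin of blood progenitors. The cells were ER-Hoxb8 cells, a mouse granulocyte-monocyte progenitor line from C57BL/6 that carries Hoxb8 fused to the estrogen receptor. All lines were kept immature in medium with stem cell factor and beta-estradiol, so none was studied during differentiation, and all retained their own mouse Erg gene. The 3 lines were stably transduced with an empty vector (the control), with human WT-ERG or with human P199L-ERG, and each mark was measured by ChIP-seq in 1 library per line. Since each mark had 1 library per line and no replicate, differences are given without a test, and what ERG did cannot be told apart from what sets single lines or libraries apart. Intervals given below are exact binomial (Clopper-Pearson) 95% intervals of 2 read counts and cover counting error only.

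Enhancers are stretches of DNA, often far from the gene they act on, where transcription factors gather. H3K4me1 marks enhancer chromatin whether or not it is in use, and H3K27ac, written by the acetyltransferases p300 and CBP, is added where an enhancer is active. H3K9ac is a second acetyl mark of active chromatin, strongest at promoters, and H3K4me3 marks promoters themselves. In myeloid progenitors, enhancers are set up by PU.1, C/EBP, RUNX, GATA and ETS factors, and ERG belongs to the ETS family.

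Sequences are shown for 5 regions picked as examples. Their H3K27ac differed between the lines, or they lay at a gene known for a distal enhancer. The Cxcr1-Cxcr2 region was picked for its ETS match, so that match is no result. Positions are 1-based on mouse GRCm38 (mm10), with the deposited starts read as counted from 0, and the letters are the + strand of the RefSeq genome, cut to the central 300 bases. Capitals mark each match, on either strand, to 1 of 9 short motifs: CAGGAAGT for ETS, TGTGGTT for RUNX, TTGCNNAA for C/EBP, TGANTCA for AP-1, AGATAA for GATA factors, CAGCTG for the E-box, TGATTTAT for HOX, GAAANNGAA for IRF and GGGCGG for Sp1/KLF, where N is any base and matches of different motifs may overlap. A match is only a match of letters.
Il10ra region, chr9:45252250-45252549: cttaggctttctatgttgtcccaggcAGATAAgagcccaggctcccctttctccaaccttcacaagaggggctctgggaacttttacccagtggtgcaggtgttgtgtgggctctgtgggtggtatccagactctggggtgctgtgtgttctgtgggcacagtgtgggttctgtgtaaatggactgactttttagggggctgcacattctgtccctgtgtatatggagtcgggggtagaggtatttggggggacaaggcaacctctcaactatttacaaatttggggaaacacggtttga
Cxcr1-Cxcr2 region, chr1:74181572-74181871: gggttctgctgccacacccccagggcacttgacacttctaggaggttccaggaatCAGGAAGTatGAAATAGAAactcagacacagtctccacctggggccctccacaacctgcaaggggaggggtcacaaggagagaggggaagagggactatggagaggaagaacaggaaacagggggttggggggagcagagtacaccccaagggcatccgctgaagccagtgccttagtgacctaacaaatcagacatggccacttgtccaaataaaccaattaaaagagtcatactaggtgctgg
Gata2 region, chr6:88121096-88121395: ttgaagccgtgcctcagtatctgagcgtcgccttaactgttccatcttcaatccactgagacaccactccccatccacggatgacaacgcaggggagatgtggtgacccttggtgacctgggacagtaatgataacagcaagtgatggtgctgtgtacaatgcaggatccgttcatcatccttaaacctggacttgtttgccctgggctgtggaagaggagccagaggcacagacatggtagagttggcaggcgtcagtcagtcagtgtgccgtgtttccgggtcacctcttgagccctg
Bcl11a region, chr11:24243650-24243949: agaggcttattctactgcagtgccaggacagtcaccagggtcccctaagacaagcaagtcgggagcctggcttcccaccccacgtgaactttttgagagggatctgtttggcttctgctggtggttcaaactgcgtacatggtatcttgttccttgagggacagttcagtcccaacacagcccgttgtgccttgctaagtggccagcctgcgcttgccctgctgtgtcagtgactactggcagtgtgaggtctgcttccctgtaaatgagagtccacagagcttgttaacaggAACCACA
Nucb2 region, chr7:116514611-116514910: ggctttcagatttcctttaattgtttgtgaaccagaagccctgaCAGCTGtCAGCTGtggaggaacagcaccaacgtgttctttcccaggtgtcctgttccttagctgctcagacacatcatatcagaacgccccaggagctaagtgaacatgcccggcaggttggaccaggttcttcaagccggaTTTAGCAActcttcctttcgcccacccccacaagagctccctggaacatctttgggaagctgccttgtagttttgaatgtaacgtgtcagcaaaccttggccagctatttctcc
The Il10ra region lay between genes, 16.7 kb from the start of Il10ra and 48.3 kb from that of Tmprss4, and held a GATA match. The region between Cxcr1 and Cxcr2, shown for its ETS match, also held an IRF match. The Gata2 region, 77.1 kb upstream of Gata2, held none of the 9 motifs in these bases, the Bcl11a region held a RUNX match, and the Nucb2 intron region, shown for its loss in both ERG lines, held a C/EBP match and 2 E-box matches.

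These regions were short and weak. Their median length was 236 bp (quartiles 175 and 349) and the nearest gene start was a median of 26.5 kb away, with 28.9% over 50 kb away. The middle of the region lay in an intron in 65.2%, between genes in 22.4% and in an exon in 12.3%. Almost all sat well inside H3K4me1 chromatin: 93.2% lay wholly inside an H3K4me1 region. Only 24 of the 47828 overlapped a region of H3K27me3, the mark of Polycomb silencing.

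Signal is given as normalized reads, the read count of a region times 1 constant per library, not divided by its length. The median was 14.9 normalized reads in the empty vector line, 15.4 in WT-ERG and 15.3 in P199L-ERG. Distal regions of the same length and distance limits that did overlap H3K9ac (10558 regions, called regions with both acetyl marks below) had medians of 36.8, 34.5 and 47.9 and a median length of 485 bp. In reads, the H3K27ac-only regions had medians of 13, 15 and 16, and 43.4% of them were under 20 reads in every library. Altogether they took 5.44%, 6.00% and 7.62% of the reads inside H3K27ac regions, whose totals per library were 15697084, 16230439 and 13980539. The values at the limits of the rule were alike on either side for distance: the median of the mean signal was 14.4 for the 1839 regions from 5001 to 6000 bp and 14.7 for the 2128 regions from 4001 to 5000 bp that missed the rule. For length, 5 members were between 2500 and 3000 bp and 1 region just above.

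Most of these enhancers were called as a peak in a single line. The authors' peak calls marked 56.5% of them in only 1 of the 3 libraries, against 41.7% of all H3K27ac regions and 24.0% of the regions with both acetyl marks. They marked 18.4% in all 3 lines, against 39.4% and 60.2%. Those called in WT-ERG only numbered 9428 (19.7%, beside 13.8% of all H3K27ac regions), those in P199L-ERG only 12155 (25.4%, beside 20.4%) and those in the empty vector only 5455 (11.4%, beside 7.51%). Calls in 1 line did not mean that the others had no signal: regions called only in WT-ERG had a median of 16.5 normalized reads there, 10.3 in the empty vector line and 7.66 in P199L-ERG. The single-line groups differed in base composition. Median GC content was 56.9% for the regions called only in WT-ERG, 53.2% for those of the empty vector and 47.6% for those of P199L-ERG, and 18.3%, 12.8% and 4.94% lay in exons. All H3K27ac regions called in a single line had the same order, with 57.3%, 53.4% and 46.8% GC and 23.1%, 15.8% and 5.58% in exons.

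The 5 strongest members differed from each other in pattern. An intron region of Acot7 at chr4:152221652-152224245 had 490, 568 and 505 reads (empty vector, WT-ERG and P199L-ERG, the order used throughout). A region 25.4 kb from Insm1, a zinc finger factor of neuroendocrine cells, had 246, 408 and 466 reads. It was the only one of the 5 whose interval lay above 0 in both ERG lines, at a log2 ratio of 0.57 (0.34 to 0.80) for WT-ERG and 0.65 (0.43 to 0.89) for P199L-ERG against the empty vector. The highest of all, 397 bp in an exon of Gm26917, had 1188, 1143 and 406 reads. It had a GC content of 63.2%, and after adjustment for GC content, described below, its log2 ratio for P199L-ERG against the empty vector was -0.35 in place of -1.81. The other 2 lay in introns of Sfi1, a centriole gene, with 436, 427 and 446 reads and with 394, 634 and 230 reads. The second had a GC content of 62.3%, and its P199L-ERG ratio against the empty vector went from -1.03 to 0.08 on adjustment.

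Over the whole class, the lines had nearly the same level. Ratios were taken as log2 of normalized reads after adding 2.18 (10% of the median over regions and libraries), and a region counted as higher or lower at 1.5-fold. Between WT-ERG and the empty vector the median log2 ratio was 0.04, with 21.8% of the regions higher and 19.6% lower, beside 17.7% and 16.6% of all H3K27ac regions. For P199L-ERG against the empty vector the median was -0.06, with 31.7% higher and 30.8% lower, beside 31.8% and 29.6% of all regions. For P199L-ERG against WT-ERG it was -0.09, with 32.4% higher and 33.1% lower, beside 33.4% and 31.4%. The shares of the class were thus close to those of all regions in both comparisons with P199L-ERG, and somewhat above them for WT-ERG. The regions with both acetyl marks were shifted toward P199L-ERG instead, with a median of 0.40 against the empty vector and 42.2% higher against 11.6% lower. Divided by total reads in place of the deposited constants, all H3K27ac regions moved up by a median of 0.39 in P199L-ERG relative to the control, and the H3K27ac-only class had a median of 0.32, slightly below them on either scale. On that scale 42.0% of the class were higher and 17.9% lower in P199L-ERG compared with the control, 39.4% and 23.3% for P199L-ERG against WT-ERG, and 25.6% and 16.3% for WT-ERG against the empty vector. All H3K27ac regions were close to this, with 43.7% and 17.2%, 41.3% and 21.2%, and 21.3% and 13.2%, so the even split of the deposited values depends on the scaling.

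Few reads stood behind many of these differences. The counting interval of the ratio lay wholly above 0 in 7.65% of the class and wholly below in 7.33% for WT-ERG against the empty vector, beside 9.3% and 13.4% of all H3K27ac regions. The same shares were 21.7% and 16.3% between P199L-ERG and the empty vector, beside 26.9% and 22.1%, and 23.6% and 19.5% for P199L-ERG against WT-ERG, beside 29.2% and 25.2%. Regions with more reads differed less often. Among the 12002 regions under 30 reads over the 3 libraries, 29.1% were at least 1.5-fold higher in WT-ERG than in the control, and among the 808 with 240 or more the share was 9.9%. The same shares over all H3K27ac regions were 29.6% and 5.24%.

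Differences that involved P199L-ERG ran along GC content. Of 10 equal groups of the regions, in the one poorest in GC (median 42.8%), the median log2 ratio of P199L-ERG against the empty vector was 1.40, and in the richest one (61.3%) it was -0.85. Against WT-ERG the same groups had 1.55 and -1.15. The ratio between WT-ERG and the empty vector had the opposite, flatter slope, from -0.23 to 0.35. The ratios were therefore also given GC-adjusted, that is, centred within groups of all H3K27ac regions of like GC content and signal, which by construction takes the trend out. After that, 18.3% of the class were higher and 20.1% lower in WT-ERG than in the empty vector (all regions 15.9% and 15.6%), 21.9% and 25.3% in P199L-ERG compared with the empty vector (21.0% and 20.8%), and 18.4% and 21.0% in P199L-ERG than in WT-ERG (16.6% and 16.8%). The part of the cells and of the libraries in this trend cannot be told apart.

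**Figure D1:**
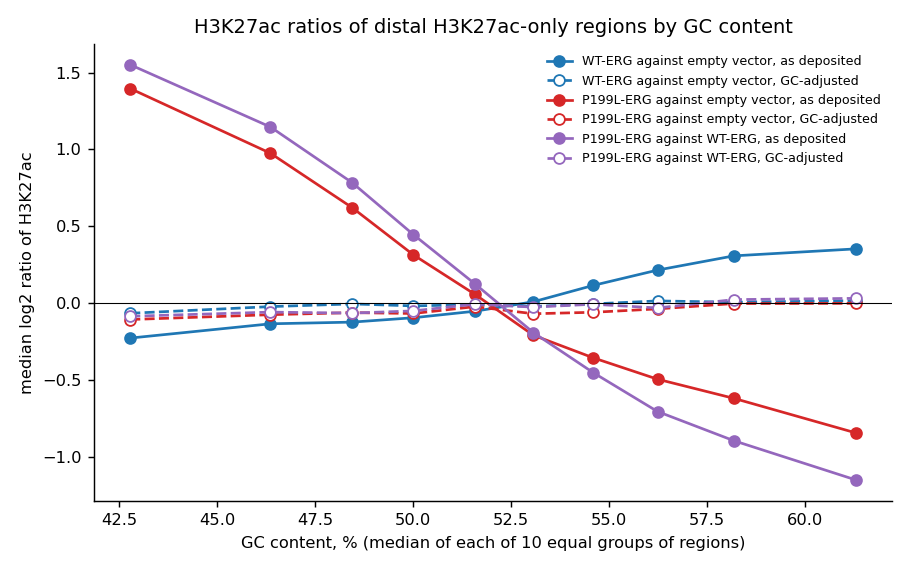
Median log2 ratio of H3K27ac (vertical axis) in 10 equal groups of the H3K27ac-only regions by GC content in percent (horizontal axis), for the 3 pairs of lines, as deposited (filled points, solid lines) and GC-adjusted (open points, dashed lines). The deposited ratios with P199L-ERG run from 1.40 or 1.55 in the poorest group to -0.85 or -1.15 in the richest, and the adjusted ones stay near 0.

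Among the largest gains were clusters of neighbouring enhancers with few reads in the empty vector line and many more in both ERG lines. One of them lay at Il10ra, which encodes a chain of the interleukin-10 receptor. Its 14 regions, 5.07 to 28.8 kb from the gene start on either side, summed to 48.3 normalized reads in the empty vector line, 360 in WT-ERG and 333 in P199L-ERG. The log2 ratio was 2.84 for WT-ERG (95% interval 2.43 to 3.40) and 2.73 for P199L-ERG (2.32 to 3.29) against the same empty vector library. Of the 14 regions, 13 were at least 1.5-fold higher in each ERG line. Over all H3K27ac regions 17.7% were higher in WT-ERG and 31.8% in P199L-ERG. Il10ra, like Fyn below, was named for the size of its summed increase, so such counts partly follow from that choice. The strongest of the 14, 11.4 kb upstream, had 12, 80 and 103 reads. The region shown above had 1, 41 and 28 reads, so few in the empty vector library that the interval of the WT-ERG ratio spanned 2.64 to 10.54. The 11 upstream regions were also assigned to Tmprss13, a membrane serine protease gene nearby. The 4 other H3K27ac regions of Il10ra, outside the class, had 37.9, 111 and 174 normalized reads.

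Fyn, a Src-family kinase gene, had 8 regions from 45.6 to 176 kb upstream, between Fyn and Wisp3. They summed to 26.4, 189 and 234 normalized reads, a log2 ratio of 2.74 (2.21 to 3.53) for WT-ERG and 3.04 (2.52 to 3.83) for P199L-ERG. All 8 were higher in P199L-ERG and 7 in WT-ERG. A region 123 kb upstream had 2, 25 and 48 reads. Another, 112 kb upstream, had 3, 51 and 32 reads and was 87.5% soft-masked repeat.

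Further gains in both ERG lines stood at Lipg, the endothelial lipase gene, and at Sema7a, a membrane-anchored semaphorin. The 14 Lipg regions summed to 91.9, 465 and 346 normalized reads and the 11 Sema7a regions to 138, 409 and 352. All of them were also assigned to a second gene, Acaa2 for those of Lipg and Cyp11a1 for those of Sema7a. A single wide region between Art2b and Pde2a, chr7:101563373-101564339, had 6, 86 and 90 reads, with a log2 ratio of 3.32 (2.50 to 5.17) for WT-ERG and 3.28 (2.47 to 5.13) for P199L-ERG. Between Cxcr1 and Cxcr2, receptors through which neutrophils sense chemokines, the region shown above had 1, 15 and 39 reads. Near Ptprc, which encodes the leukocyte antigen CD45, an intron region had 0, 5 and 45 reads, at a GC content of 44.0%. Set against the 3 reads that a count of 0 allows in the empty vector library, P199L-ERG was 12.5-fold higher. This value leaves out the counting error of the 45 reads. Ephb2, an ephrin receptor gene, differed from all of these. Its 9 regions, also assigned to Lactbl1, summed to 93.1, 302 and 111 normalized reads and were high in WT-ERG alone as deposited. The P199L-ERG ratio to the empty vector was 0.25 as deposited and 0.81 GC-adjusted. P199L-ERG against WT-ERG was -1.43 (-1.77 to -1.13) there and -0.61 GC-adjusted, at a median GC content of 58.8%.

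**Figure D2:**
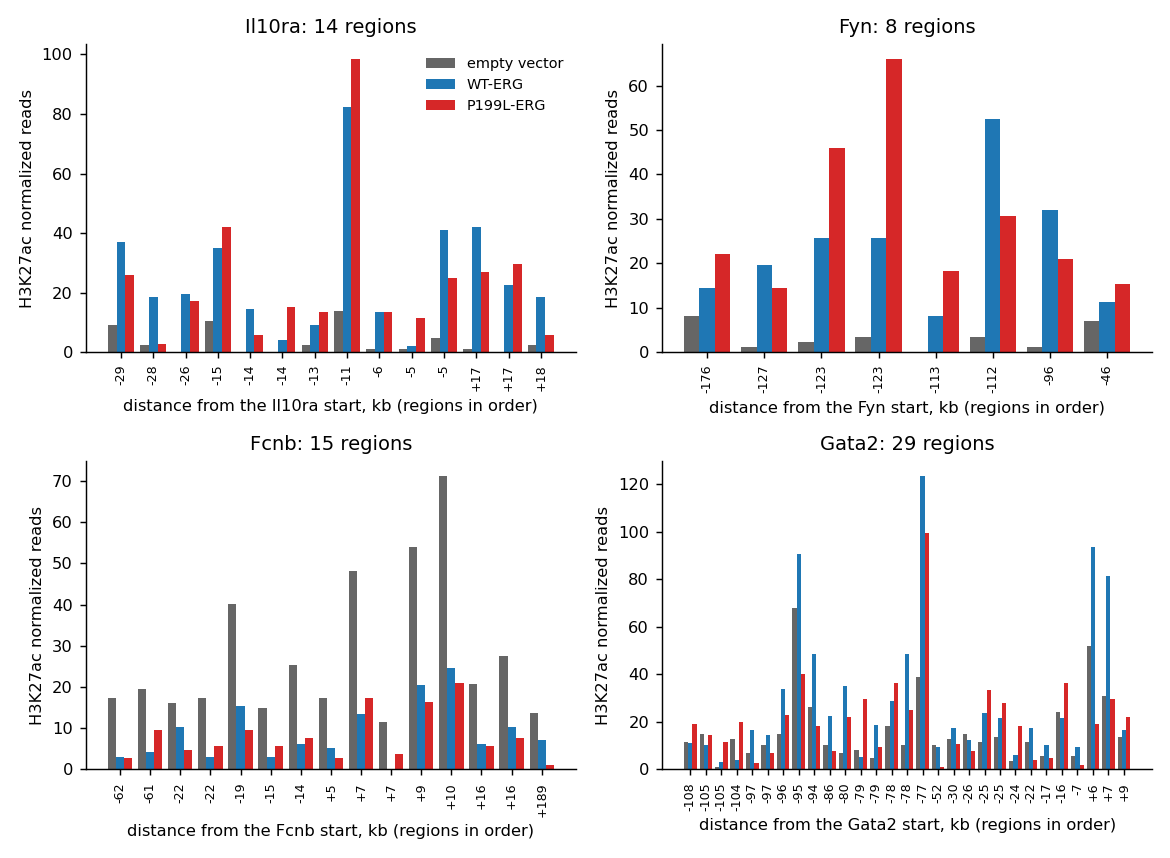
H3K27ac normalized reads (vertical axis) of every H3K27ac-only region assigned to Il10ra, Fyn, Fcnb and Gata2, in order of distance from the gene start in kb (horizontal axis), with 1 bar per line and 1 library per bar. At Il10ra and Fyn the empty vector bars are the lowest throughout, at Fcnb they are the highest, and at Gata2 the tallest bars are those of WT-ERG and P199L-ERG at -77 kb.

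Losses in both ERG lines were found at Fcnb, Klb, Rbm28, Nrg2 and Abcc5, among others. Fcnb encodes ficolin B, a lectin made by myeloid cells of the bone marrow. Its 15 regions summed to 415, 133 and 122 normalized reads. The log2 ratio was -1.63 (-1.95 to -1.35) for WT-ERG and -1.75 (-2.07 to -1.48) for P199L-ERG, and 14 and all 15 of the regions were at least 1.5-fold lower. Over all H3K27ac regions 16.6% were lower in WT-ERG and 29.6% in P199L-ERG. Fcnb was named for the size of its summed decrease, so these counts partly follow from that choice. The strongest Fcnb region, 10.5 kb from the start, had 62, 24 and 22 reads. The 21 other H3K27ac regions of Fcnb were lower too, with 4178, 1886 and 3026 normalized reads.

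The 4 regions of Klb, which encodes the FGF co-receptor beta-Klotho, were also assigned to Rpl9 and summed to 321, 93.6 and 123 normalized reads. The log2 ratio was -1.75 (-2.13 to -1.43) for WT-ERG, the largest decrease among the named genes, and -1.37 (-1.70 to -1.08) for P199L-ERG, or -2.19 GC-adjusted at a median GC content of 40.7%. The 12 regions of Rbm28, a nucleolar RNA-binding protein gene, summed to 506, 169 and 279 normalized reads, with a log2 ratio of -1.57 (-1.85 to -1.32) for WT-ERG and -0.86 (-1.08 to -0.64) for P199L-ERG. The 14 regions of Nrg2, a neuregulin, had 327, 121 and 156. The 6 of Abcc5, a transporter gene, were also assigned to Cyp2ab1 and had 219, 73.0 and 105. At these 4 genes the deposited order was the same, with WT-ERG the lowest and P199L-ERG between the others. At Klb, however, P199L-ERG against WT-ERG was 0.38 (-0.01 to 0.79) and became -0.57 GC-adjusted, which turned the order around. At Nrg2 it was 0.36 (0.01 to 0.72) and 0.11 adjusted. The adjusted values at Rbm28 and Abcc5 were 0.30 and 0.54. An intron region of Nucb2, shown above, had 43, 4 and 15 reads (log2 ratio -3.03 for WT-ERG, -5.53 to -2.13), and a region 5.85 kb from Map6 had 57, 9 and 20. Near Camp, which encodes the neutrophil granule peptide CRAMP, a region 10.0 kb upstream had 43, 20 and 16 reads, a log2 ratio of -1.18 (-2.11 to -0.47) and -1.56 (-2.62 to -0.83). Sall1, a zinc finger gene, was lower in WT-ERG alone: its 7 regions had 272, 92.6 and 262 normalized reads, although after GC adjustment P199L-ERG was at -0.84 against the empty vector.

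Enhancers of stem and progenitor factors differed region by region. At Gata2, which encodes a GATA factor of blood stem cells and of mast cells, the region 77.1 kb upstream, at the distance of the distal Gata2 enhancer known in mouse progenitors, had 34, 120 and 104 reads. Its log2 ratio was 1.61 (1.10 to 2.25) for WT-ERG and 1.30 (0.78 to 1.95) for P199L-ERG, and 1.5 and 1.39 after GC adjustment. The 5 regions beside it, from 78.0 to 79.7 kb upstream, had 4 to 16 reads in the empty vector line and 5 to 47 in WT-ERG. All 29 Gata2 regions together summed to 475, 855 and 602 normalized reads. In WT-ERG 14 were higher and 1 lower, beside 17.7% and 16.6% of all H3K27ac regions. In P199L-ERG 13 were higher and 7 lower, beside 31.8% and 29.6%.

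Runx1, a core factor of blood stem cells, had 83 regions with 1533, 1917 and 2154 normalized reads. The strongest, 382 kb upstream, had 41, 101 and 158 reads, a log2 ratio of 1.11 (0.60 to 1.70) and 1.64 (1.18 to 2.22). The strongest Erg region, 110 kb upstream, had 71, 114 and 119 reads, a log2 ratio of 0.51 (0.08 to 0.97) and 0.47 (0.05 to 0.93), while the 50 Erg regions together had 1254, 1134 and 1489 normalized reads. Fli1, a close relative of Erg, was lower in WT-ERG: its 37 regions summed to 634, 453 and 789 normalized reads, a log2 ratio of -0.48 (-0.67 to -0.30), and the P199L-ERG ratio went from 0.31 to -0.19 on adjustment. Etv6, an ETS repressor gene with 108 regions, was nearly level in WT-ERG (0.11, 0.03 to 0.19) and higher in P199L-ERG as deposited (0.52) but not after adjustment (0.14). The strongest Etv6 region had 226, 268 and 275 reads. The strongest region of Kit, the receptor of stem cell factor, had 168, 175 and 139, with a log2 ratio of -0.10 (-0.41 to 0.21) for WT-ERG and -0.53 (-0.87 to -0.20) for P199L-ERG.

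Some enhancers stood out in WT-ERG alone. The region 54.9 kb from Socs3, a brake on cytokine receptors, had 27, 110 and 37 reads, with a log2 ratio of 1.80 (1.25 to 2.53) for WT-ERG and 0.18 (-0.56 to 0.96) for P199L-ERG. Its GC content was 60.8%, and after adjustment the P199L-ERG ratio was 1.07. The Bcl11a region, 166 kb from this gene of lymphoid and fetal globin control, had 17, 58 and 23 reads and changed little with adjustment (1.51 to 1.55 for WT-ERG, 0.16 to 0.19 for P199L-ERG). The strongest region of Irf8, the factor of monocyte fate, had 42, 87 and 43 reads, and the 14 Irf8 regions together had 242, 463 and 212 normalized reads. For Irf8, P199L-ERG against WT-ERG was -1.12 as deposited and -0.41 adjusted, at a median GC content of 57.4%, and for its strongest region -1.08 and 0.09.

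Other enhancers stood out in P199L-ERG alone. The strongest region of Csf3r, the receptor of the neutrophil growth factor G-CSF, had 28, 40 and 106 reads, a log2 ratio of 1.59 (1.04 to 2.31) against the empty vector and 1.10 after adjustment. A region near Cd34, a surface antigen of progenitors, had 5, 7 and 38 reads (2.28, 1.31 to 4.37, adjusted 1.19). An intron region of Rab31, a small GTPase of vesicle traffic, had 5, 9 and 47 reads with a log2 ratio of 2.57 as deposited and 2.82 adjusted. At Tlr4, the endotoxin receptor, the 15 regions summed to 145, 132 and 517 normalized reads, but their median GC content was 44.0% and the P199L-ERG ratio went from 1.82 to 0.43. H3K4me1 under them was highest in WT-ERG instead, at 389, 899 and 526 normalized reads.

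**Figure D3:**
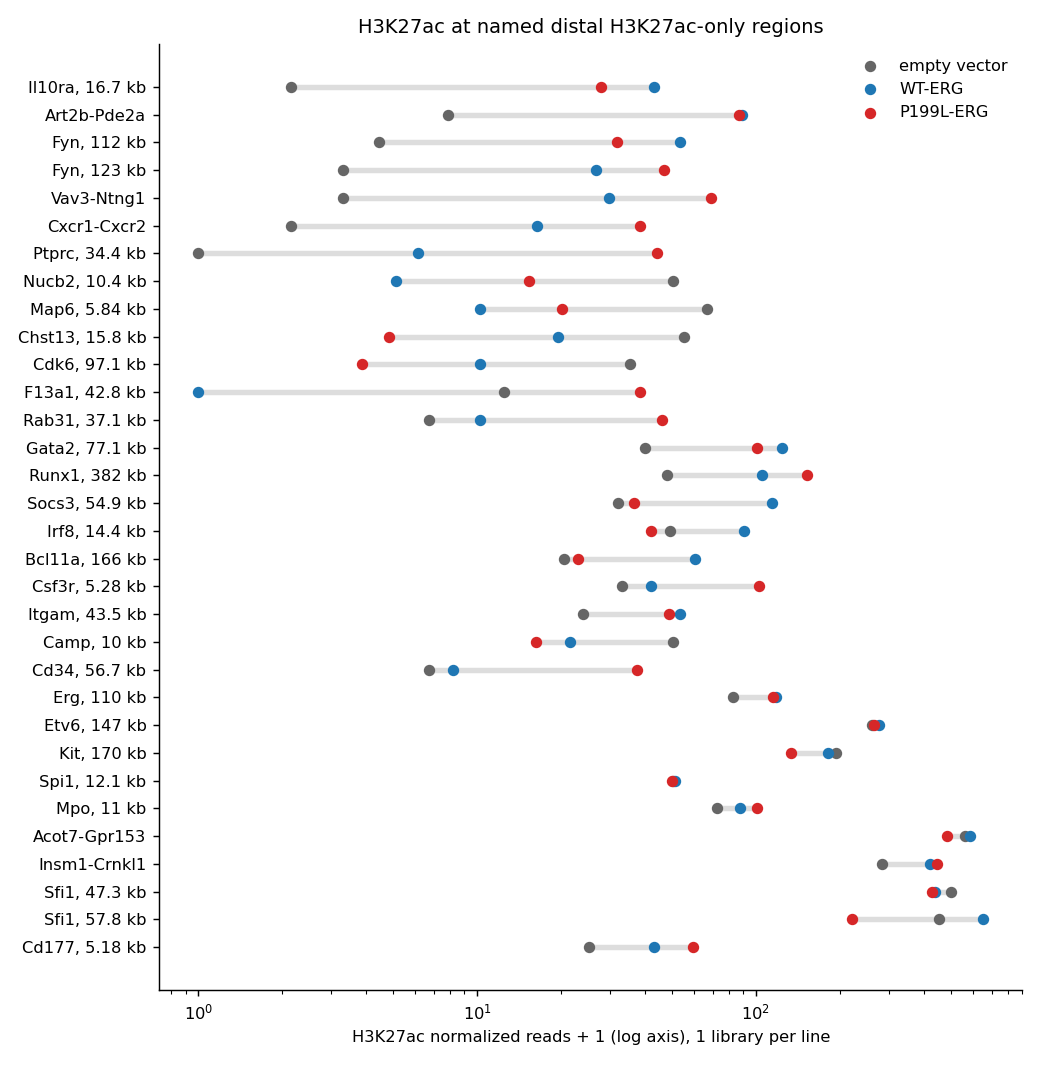
H3K27ac normalized reads plus 1 (horizontal log axis) of 32 named H3K27ac-only regions in the 3 lines, 1 point per line and 1 library per point, with a grey bar from the lowest to the highest. The regions near Il10ra and Fyn have their lowest point in the empty vector line, those near Nucb2, Map6 and Camp their highest, and those near Etv6, Spi1 and Acot7 have all points close together.

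Gene groups gave smaller differences. The medians below stand beside those of the class, 0.04 for WT-ERG and -0.06 for P199L-ERG, each relative to the control (-0.01 and -0.05 GC-adjusted), and no list was tested. The counts stand beside 17.7% higher and 16.6% lower of all H3K27ac regions in WT-ERG (21.8% and 19.6% of the class), and 31.8% and 29.6% in P199L-ERG (31.7% and 30.8%). Of the 303 regions of 18 cytokine signalling genes, 99 were higher (32.7%) and 39 lower (12.9%) in WT-ERG, at a median of 0.29 (0.15 GC-adjusted), and 105 were higher (34.7%) and 76 lower (25.1%) in P199L-ERG. Late neutrophil genes (23 genes, 176 regions) had 44 regions higher and 38 lower in WT-ERG, whereas in P199L-ERG 73 were higher (41.5%) and 35 lower (19.9%), at a median of 0.39 (0.28 adjusted). Stem and progenitor genes had 738 regions, of which 188 were higher (25.5%) and 147 lower (19.9%) in WT-ERG (median 0.05), and 314 were higher (42.5%) and 168 lower (22.8%) in P199L-ERG (median 0.32, adjusted 0.07).

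Of the 12 lists, megakaryocyte genes had the highest share of regions lower in WT-ERG: of 136 regions, 21 were higher (15.4%) and 46 lower (33.8%) (median -0.14, adjusted -0.08). In P199L-ERG 69 of them were higher (50.7%) and 22 lower (16.2%), but the median of 0.59 became 0.04 on adjustment. Thbs1, the thrombospondin gene of platelets, had 40 regions with 564, 350 and 1030 normalized reads, and its P199L-ERG ratio against the empty vector went from 0.87 to -0.05 on adjustment. Regions of mast cell and basophil genes had a median of 0.16 in WT-ERG (0.18 adjusted) and 0.40 in P199L-ERG (0.23). The WT-ERG value was not particular to them. B lymphoid genes had 0.16 in WT-ERG (0.22 adjusted) and 0.03 in P199L-ERG (-0.02). T and NK cell genes had 0.16 (0.03 adjusted) and 0.10 (0.19), and monocyte and macrophage genes -0.03 (-0.04 adjusted) and 0.20 (-0.05). The 226 regions of the NCoR-HDAC3 co-repressor genes had 0.07 in WT-ERG (-0.03 adjusted) and -0.40 in P199L-ERG (-0.11), and those of erythroid genes had 0.29 (0.01 adjusted) and -0.41 (-0.13).

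The cell type was checked by the marker genes of myeloid progenitors, over all H3K27ac regions in the empty vector line. The 12 markers had from 1401 normalized reads (Elane) to 15541 (Cebpa), with 9193 at Prtn3 and 11036 at Spi1, whereas the B cell factor Pax5 had 13.8, the T cell factor Gata3 9.19 and Hbb-bs no region. Not every marker of other cells was at 0: Ebf1 had 1730, Tcf7 1349, Klf1 931 and Cd79a 3039 in the empty vector line. Cd79a was thus above Elane, Csf3r (1659), Irf8 (1719) and Ctsg (2204), and Ebf1 above the first 3 of these. In the class itself Ebf1 had 281, 410 and 294 normalized reads and Tcf7 194, 327 and 210. Their part in the results was not tested.

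H3K4me1 came from separate libraries and its level was not used to choose the regions. The H3K27ac-only regions lay in 22553 H3K4me1 regions of a median 2925 bp, and 35497 of them shared one with another member, up to 41 in a single region. These H3K4me1 regions had 67.8, 67.2 and 66.5 normalized reads per kb, against 39.7, 44.5 and 40.7 in the 72465 H3K4me1 regions without H3K27ac, and 88.4% were called in all 3 lines, beside 56.0% of all H3K4me1 regions. Of the H3K27ac-only regions called in 1 line, 91.9% lay in an H3K4me1 region called in all 3, beside 98.9% of those called in 3 lines. Over all H3K27ac regions in H3K4me1 chromatin these shares were 92.8% and 95.9%. Of the 22553 H3K4me1 regions 14.3% were at least 1.5-fold higher and 12.5% lower in WT-ERG than in the empty vector, beside 25.3% and 17.2% of all H3K4me1 regions. For P199L-ERG against the empty vector 5.88% were higher and 7.76% lower, beside 12.8% and 12.5%, and for P199L-ERG against WT-ERG 6.53% and 11.6%, beside 14.5% and 23.4%.

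The ratios of the marks were compared over the class. Where P199L-ERG had more H3K27ac than the control, GC-adjusted, the median log2 ratio of H3K4me1 was 0.06, and where it was lower it was -0.13. For WT-ERG the same medians were 0.04 and -0.15. Over the 6344 regions with at least 100 reads, the H3K27ac and H3K4me1 ratios had a Spearman correlation of 0.13 for WT-ERG and 0.55 for P199L-ERG as deposited, and of 0.23 and 0.30 with H3K27ac GC-adjusted, given as a description, since regions share libraries, H3K4me1 regions and base composition. H3K4me1 was not GC-adjusted. Its ratio had a correlation with GC content of -0.26 for WT-ERG and -0.50 for P199L-ERG. The deposited H3K27ac ratio had 0.35 and -0.60.

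At the gained clusters of Il10ra and Fyn H3K4me1 was higher as well. The H3K4me1 regions under the Il10ra enhancers had 761, 1845 and 1986 normalized reads (log2 ratio 1.27 and 1.38) and those at Fyn 522, 1365 and 1321 (1.38 and 1.33). Lipg had a smaller difference, with 1674, 2121 and 2227. At Rbm28 and Fcnb, which lost H3K27ac, H3K4me1 was lower: it was 989, 308 and 426 at Rbm28 (-1.67 and -1.21) and 5703, 2626 and 3632 at Fcnb (-1.12 and -0.65). Gata2 and Sall1 did not show this. H3K4me1 under the Gata2 enhancers was 8431, 7490 and 7229, slightly lower in both ERG lines while H3K27ac was higher, and that at Sall1 was 701, 672 and 693, nearly level while H3K27ac was lower in WT-ERG.

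**Figure D4:**
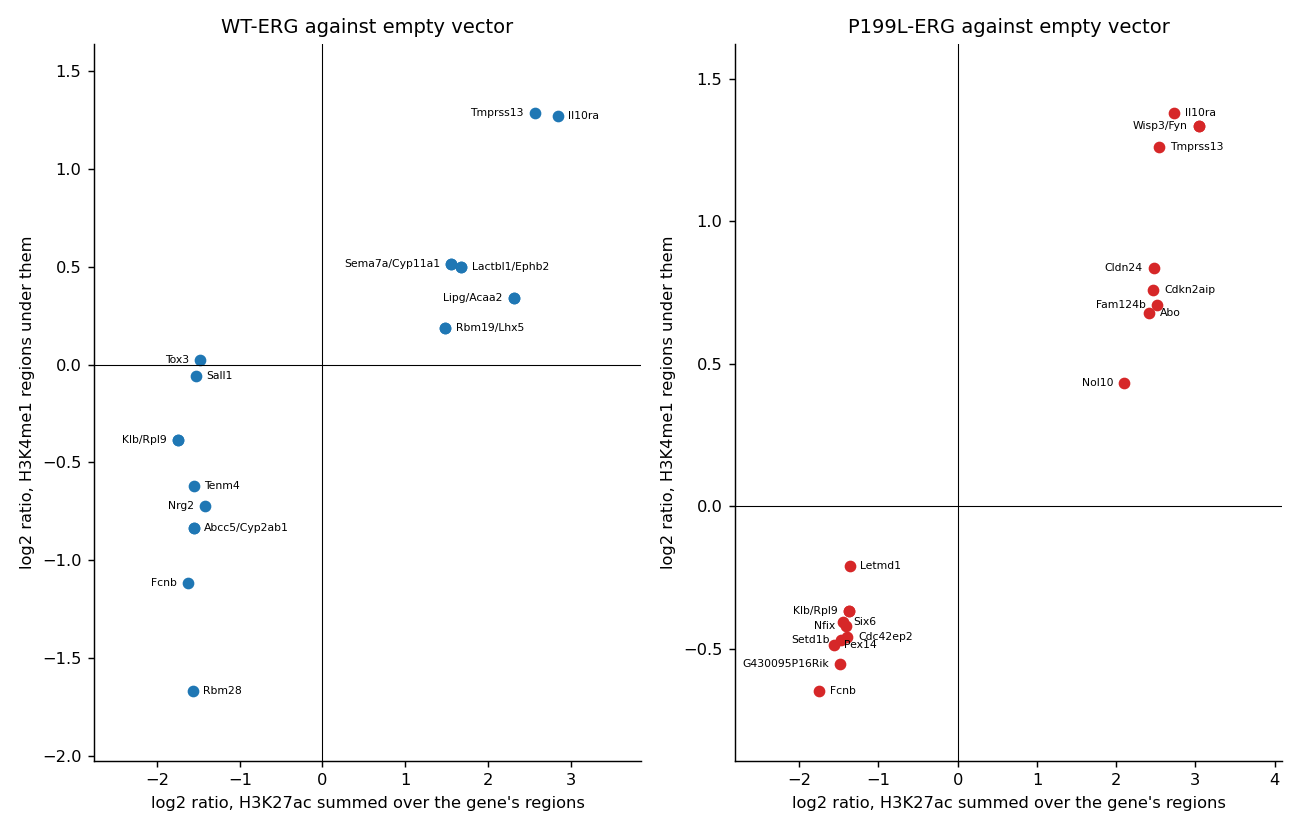
Log2 ratio of H3K27ac summed over the H3K27ac-only regions of a gene (horizontal axis) and of the H3K4me1 regions under them (vertical axis), for the 10 genes with the largest increase and the 10 with the largest decrease in H3K27ac among genes with at least 4 regions whose larger sum reached the median of such genes, WT-ERG (left) and P199L-ERG (right) against the empty vector; genes that share all regions share a point, and 1 gene of the right panel is left out. Fyn, with 189 normalized reads in WT-ERG, was under the limit of 202 for the left panel. Il10ra and Tmprss13 (left) and Il10ra and Fyn (right) lie highest in both marks among the genes plotted, and Rbm28 (left) and Fcnb (both panels) lie lowest in H3K4me1; the vertical scales of the panels differ.

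In sequence, the class differed from the regions with both marks in several motifs, and part of this followed GC content. In the central 200 bases, the Sp1/KLF motif was found in 6.36% of the H3K27ac-only regions, 3.73% of the regions with both acetyl marks and 9.86% of all H3K27ac regions. The E-box motif, bound by basic helix-loop-helix factors, was found in 16.2%, 14.9% and 14.8%. GATA was less frequent than in the regions with both marks (5.83% against 7.86%), as was ETS (2.29% against 2.71%). Windows of the class were richer in GC than those with both marks (median 52.5% and 50%). Within the lowest, middle and highest of 3 GC groups, GATA was at 9.03%, 5.44% and 3.00% in the class and at 9.50%, 6.69% and 4.13% in the regions with both marks. ETS was at 2.31%, 2.36% and 2.19% against 2.27%, 3.19% and 3.27%, so it was lower in the class in the upper 2 groups. The E-box turned around and was less frequent in the class within each group, with 10.6% against 11.0% in the lowest and 16.1% against 17.8% in the middle one, and Sp1/KLF was at 2.33%, 5.47% and 11.3% against 2.22%, 4.68% and 7.47%.

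Motif shares differed between the enhancers that were higher and those that were lower. The Wilson intervals given with them treat regions as independent, though many shared an H3K4me1 region. With 1 library per line, they do not cover the spread between libraries and are no test of a difference between lines. After GC adjustment, ETS was found in 2.81% (95% Wilson interval 2.51 to 3.14) of the regions higher in P199L-ERG than in the control and in 1.67% (1.46 to 1.91) of those lower, and GATA in 6.74% (6.27 to 7.23) and 4.91% (4.54 to 5.31). AP-1, the motif of FOS and JUN, went the same way with 5.50% and 4.24%. C/EBP, the motif of the factors that drive granulocyte maturation, went the other way, with 5.64% (5.21 to 6.10) of the higher and 7.52% (7.07 to 8.01) of the lower regions, and so did IRF with 4.43% and 5.49%. RUNX was at 4.43% and 4.58%.

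WT-ERG, set against the same empty vector library, gave 6.63% and 5.30% for GATA, 5.81% and 7.05% for C/EBP, 4.57% and 5.49% for IRF, and a smaller difference for ETS, 2.51% (2.21 to 2.86) and 2.07% (1.80 to 2.37). P199L-ERG against WT-ERG gave 2.74% and 1.65% for ETS and 6.00% and 7.26% for C/EBP. The windows of the higher and lower groups had median GC contents of 52.0% and 51.5% in both comparisons with the empty vector. A limit of at least 60 reads was set after the data were seen. Among these regions the P199L-ERG shares were 2.90% (2.34 to 3.59) and 2.11% (1.67 to 2.66) for ETS, with overlapping intervals. For GATA the P199L-ERG shares were 6.77% (5.9 to 7.77) and 4.62% (3.95 to 5.39). Those for C/EBP, 6.67% and 7.09%, lay within each other's intervals. So did the WT-ERG shares for C/EBP, 6.58% and 6.75%, and for ETS, 2.67% (2.06 to 3.45) and 2.22% (1.66 to 2.96). Without GC adjustment C/EBP was more frequent in the higher than in the lower regions of P199L-ERG against the empty vector, with 7.93% and 5.67% over the whole class and 8.18% and 5.30% from 60 reads, and against WT-ERG, with 8.39% and 5.20%. IRF was too, with 5.63% and 3.90% against the empty vector. The direction of both motifs in P199L-ERG thus depended on the adjustment, as did that of GATA in WT-ERG over the whole class, with 5.48% of the higher and 5.93% of the lower regions unadjusted.

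**Figure D5:**
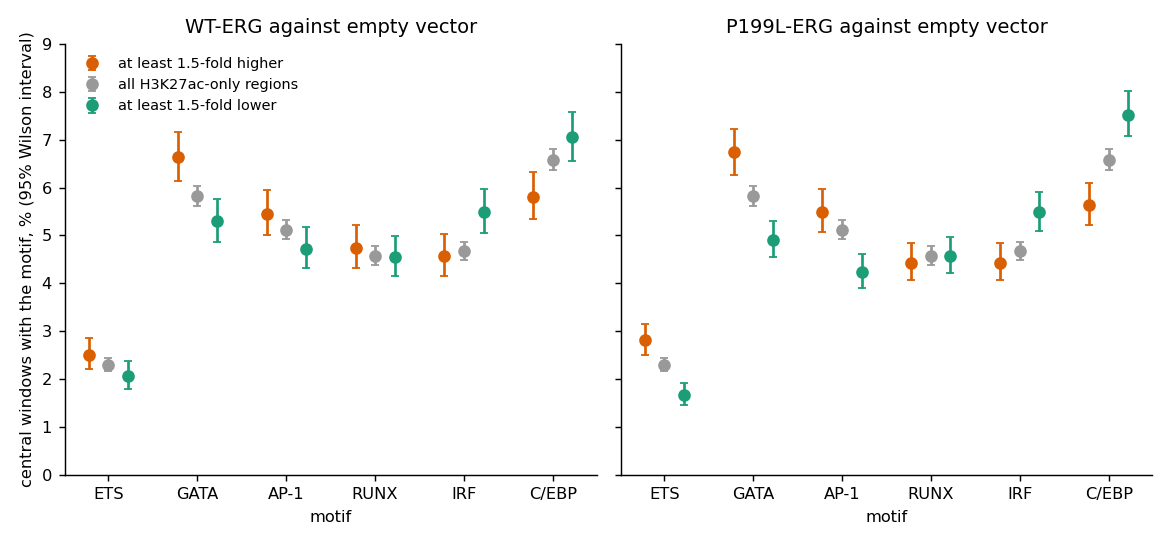
Share of central 200-base windows in percent (vertical axis, with 95% Wilson intervals) that hold each of 6 motifs (horizontal axis), in the H3K27ac-only regions at least 1.5-fold higher (orange), at least 1.5-fold lower (green) and in all of them (grey), GC-adjusted, for WT-ERG and P199L-ERG against the empty vector. GATA lies at 6.63% and 6.74% in the higher groups and 5.30% and 4.91% in the lower, and C/EBP lies the other way.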

How the data were processed

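Histone marks were measured by ChIP-seq in 1 library per mark and line; the pooled IgG control among the 16 samples was not analysed here. Per the labels and methods, the authors trimmed adapters with Cutadapt, dropped reads under 30 nucleotides, used bowtie to place reads uniquely on mm10, found peaks with MACS2, joined them within each mark and assigned genes with GREAT. The deposited tables hold a read count per region and library, the authors' normalized signal (the count times 1 factor per library: 1.15, 1.03 and 0.957 for H3K27ac) and a 0 or 1 peak call; how the factor was made and how duplicates were treated is not given in the sources used here. Precision follows from the depth, with medians of 13, 15 and 16 reads per region, and intervals of ratios cover counting error only.

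Overlaps needed at least 1 base. Ratios, GC adjustment (20 GC groups by 10 signal groups), Wilson and exact binomial intervals and motif counts were computed in Python 3.11.15 with scipy 1.17.1, and tested on simulated data. A gene's value is the sum over its assigned regions, and regions with a gene on either side enter the sums of both. Regions named were the 5 strongest, the 5 largest increases and decreases per pair among those at or above 33.5 normalized reads, as deposited and GC-adjusted, and the strongest region of each of a fixed set of genes. Genes named were the 5 with most regions, the 10 largest increases and decreases per pair among genes with at least 4 regions whose larger sum of the pair was at or above the median of such genes (202, 218 and 224 normalized reads), and the strongest 3 of each list. Other regions of these genes, the sums for Erg and Irf8, and the Ebf1 and Tcf7 levels were picked after their values were seen. Results for 2 genes are not reported here. Members and lists were chosen with earlier results of these data known. Columns of counts were taken by sample name. Alternatives were total-read scaling, a larger pseudocount, a filter on low signal, GC adjustment, stricter overlap, calls in all libraries and a greater distance; limits on repeats and on reads were added after the data were seen.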

Additional observations from a re-analysis of the deposited data

How the results depend on the processing

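Every value rests on 1 library per line, so no alternative measures the spread between cultures, and depth limits most single regions. No paired analysis was possible because each line had 1 library and no test was run. Order below is WT-ERG against the empty vector, P199L-ERG against the empty vector, then P199L-ERG against WT-ERG, giving the values that moved. With the larger pseudocount the shares were 10.0% higher and 9.36% lower, 19.6% lower, and 21.7% lower, with medians of 0.027, -0.034 and -0.052. For regions called in all 3 libraries they were 9.08% higher and 12.6% lower (median -0.059), 14.3% and 17.3%, and 18.2% and 17.7% (-0.013). Total-read scaling gave medians of 0.137, 0.322 and 0.192, with 17.9% lower for P199L-ERG against the control, and the filter on low signal gave 0.023, -0.158 and -0.175. GC adjustment gave -0.01 for WT-ERG against the control, and 18.4% higher, 21.0% lower and -0.025 between the ERG lines. Beyond 10000 bp the medians with P199L-ERG were -0.009 and -0.023. Among the alternatives chosen after the data were seen, leaving out regions over 50% repeat gave 0.054 and, between the ERG lines, -0.092, and at least 100 reads gave 13.6% higher, 12.6% lower and 0.017, then -0.103 and -0.102. Of 204 values of named genes and regions, GC adjustment moved 78 and turned the sign of 5 whose deposited ratio was at least 1.5-fold: P199L-ERG against WT-ERG became 0.088 at the Irf8 region, -0.201 for Cldn24 and -0.04 for Fam124b, and P199L-ERG against the empty vector became -0.047 for Thbs1 and 0.076 at the Sfi1 region 57.8 kb from its start. The cause was not tested.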
